A study of Mus musculus with 12 samples.

Results

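The genes described here encode serpins and Kazal-type serine protease inhibitors, taken as every row of the deposited table whose symbol begins with Serpin or with Spink and a digit. The rule found 75 genes of 23284, of which 63 are serpins and 12 are Spink genes. Poly-A selected RNA of mouse prostate tissue was sequenced in 12 libraries. Wild-type mice gave 6 of them, and mice with both copies of 1 gene replaced by a null allele, called null here, gave the other 6. All mice were 4 months old and of a hybrid 129/SvImJ and C57Bl/6J background, and the series title places the study in prostate differentiation. The labels give no lobe of the prostate and do not say whether each library came from its own animal, so p-values rest on the spread from library to library, which may be technical.

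Serpins are proteins that trap their target protease: the protease cuts an exposed loop of the serpin and stays bound to it, so that each inhibitor molecule is used once. Kazal-type inhibitors are small secreted proteins, held together by disulfide bonds, that block trypsin-like proteases reversibly by occupying the active site. The prostate and seminal vesicles secrete both kinds of inhibitor into a fluid that is rich in proteases, while other serpins act inside cells, in blood clotting, in complement or as chaperones.

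Values were on a log2 scale and are not corrected for transcript length, so levels are compared between libraries and not between genes. Undetected genes scattered below 4: over 1123 olfactory receptor genes the median was 2.85 and the 95th percentile 3.51. The depth is unknown, since no read totals were given. Each genotype split into 2 sets of 3 libraries. The wild-type sets were 1 to 3 and 4 to 6; the null sets were 1, 2, 5 and 3, 4, 6. Distances over 3633 genes with means of 10 or more had a median of 0.0563 inside wild-type sets and 0.109 between them, and for null sets of 0.0659 and 0.144. Null libraries 5 and 6 lay 0.0296 and 0.0293 from equal mixes of the other libraries of their sets. Results are therefore also given from the 4 set means, 2 against 2.

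Of the 75 genes, 19 stood at 4 or more in all 12 libraries, and 37 stayed under 4 in every library. A gene was tested when it reached 4 in at least 6 libraries, which 24 members did, 19 serpins and 5 Spink genes. Spink2, at 4 in 6 libraries, lay just inside this limit, while Spink14 and Serpina3f, at 4 in 4 libraries each, lay just outside it. Spink2 entered only through the null libraries, where it is high, and had to differ for that reason. Serpina3m and Serpinb11, at 4 in all 6 wild-type libraries but in only 1 and 3 null libraries, could not have entered without the wild-type libraries.

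In null prostate 15 of the 24 tested members changed (62.5%), at an adjusted p under 0.05 with limma, against 53.1% of all 15096 tested genes. By this count the members changed about as often as other genes did. Their share was larger for 2-fold changes, for ranges that did not overlap and over set means, and no difference in share was tested. By direction, 7 members rose, against 28.0% of all tested genes, and 8 fell, against 25.1%. The median difference between null and wild type was -0.181 over the 24 members and 0.012 over all tested genes, and the median size of the difference was 0.688 and 0.247. Changes of at least 2-fold were called for 9 of the 24 members, against 7.01% of all tested genes, with 3 higher (2.99% of all) and 6 lower (4.01% of all). In 14 of the 24 members the ranges of the 2 genotypes did not overlap, against 32.6% of all tested genes. Over set means 10 of the 24 members passed, 3 higher and 7 lower, against 14.5% of all tested genes. Upper quartile scaling called 7 members higher and 11 lower, and moved the split over all genes from 4224 higher and 3789 lower to 3367 higher and 4869 lower.

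**Figure D1:**
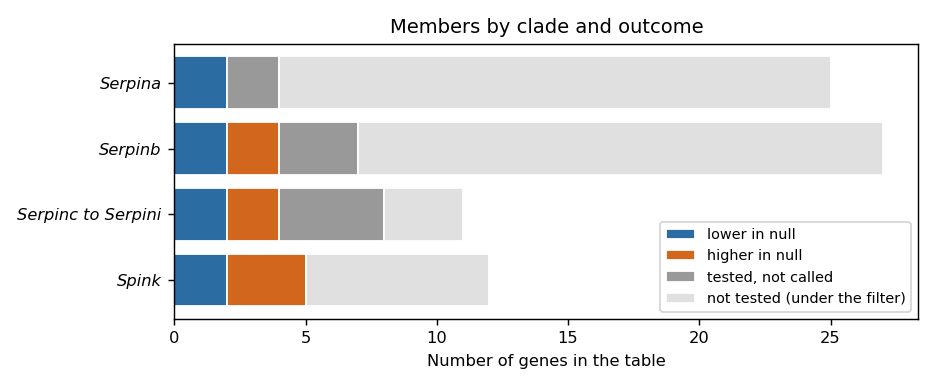
Number of Serpin and Spink genes in the table by clade (rows; clades C to I as 1 group), split into genes lower in null prostate, higher in null prostate, tested but not called, and not tested because they stayed under the filter. Spink2 met the filter only through the null libraries, where it is high, and so had to differ. With it, all 5 tested Spink genes were called, 2 lower and 3 higher, against 53.1% of all tested genes. In contrast 21 of 25 Serpina genes and 20 of 27 Serpinb genes were not tested.

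The 3 largest differences among the tested members were those of Kazal-type genes, in both directions. Spink3 encodes a secreted trypsin inhibitor of the male accessory glands and pancreas, the mouse counterpart of human SPINK1 and listed as Spink1 in RefSeq. In wild-type libraries Spink3 stood at 17.48, 17.50, 17.59, 17.91, 17.95 and 17.96. In null libraries 1 to 6 it stood at 11.23, 15.05, 13.80, 14.11, 14.21 and 13.99. Every null library lay below every wild-type library, and null library 1 lay far below the other null libraries. Spink3 fell by 4.00 ± 0.51 (SE) on the log2 scale, 16-fold, from 17.73 ± 0.23 (SD, n = 6) to 13.73 ± 1.3 (SD, n = 6), with limma adjusted p = 5.65e-05 and adjusted p = 0.0013 over set means. In bulk tissue, fewer cells of a type and less RNA per cell cannot be told apart.

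Spink5 encodes LEKTI, a secreted inhibitor with many Kazal-type domains that restrains kallikrein proteases in the skin. Spink5 stood at 13.68, 13.81 and 13.75 in wild-type libraries 1, 2 and 3 and at 12.74, 12.68 and 12.66 in libraries 4, 5 and 6. In null libraries 1 to 6 it stood at 6.23, 4.42, 6.82, 6.89, 5.51 and 6.88, low in all 6 but still above 4. The sets stood apart within both genotypes, yet the gap between genotypes was several times larger than either. Spink5 fell by 7.09 ± 0.45 (SE), from 13.22 ± 0.58 (SD, n = 6) to 6.13 ± 0.99 (SD, n = 6), with limma adjusted p = 2.06e-07 and adjusted p = 0.0111 over set means. The difference was -6.35 without null libraries 1, 2 and 5 and -7.83 without null libraries 3, 4 and 6.

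Null libraries 1 and 2 differed in opposite directions for these genes. Library 1 was the lower for Spink3 and library 2 for Spink5. An equal mix of libraries 1 and 2 would give 14.15 for Spink3 and 5.59 for Spink5, and library 5 stood at 14.21 and 5.51. Without null library 1 the difference of Spink3 was -3.50 with limma adjusted p = 3.10e-08. Of 7 prostate luminal markers, 6 fell and 1 rose, all called, against 53.1% of all tested genes. The secretory genes Sbp, Pbsn and Msmb and the keratin genes Krt8 and Krt18 lay below wild type in every null library. Sbp fell by 15.04, to 3.13 to 5.06, Msmb by 5.62 and Pbsn by 2.15, but Krt8 by 0.44 and Krt18 by 0.3. Tgm4 fell by 0.39 with overlapping ranges, and Azgp1 rose by 0.33 (limma adjusted p = 0.0102). The summed level of the 7 markers was 20.58 to 20.78 in wild-type and 19.22 to 19.66 in null libraries. Null library 1, the lowest for Spink3, was also the lowest null library for 5 of 9 seminal vesicle markers, which were higher in null prostate. The part of these markers in the values of Spink3 and Spink5 was not tested. Of 5 pancreatic acinar markers, 4 stayed under 4 in every library. The other, Cela1, stood at 7.12 to 7.66 in wild-type and 5.5 to 6.13 in null libraries. It fell by 1.53 ± 0.13 (SE; limma adjusted p = 2.89e-07), and its part in the Spink3 values was not tested.

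Spink8, another Kazal-type gene, rose. It stood at 8.31 to 8.79 in wild-type libraries (median 8.55) and at 10.58 to 11.42 in null libraries (median 11.30). The ranges were well apart, with null library 1 the lowest of its group. The rise was 2.62 ± 0.13 (SE), 6.16-fold, with limma adjusted p = 3.23e-09 and adjusted p = 0.00166 over set means. Spink2, known as a sperm acrosome protein in testis, stood at 3.42 to 3.98 in wild-type libraries, below the floor, and at 4.57 to 5.08 in null libraries. It rose by 1.02 ± 0.15 (SE; limma adjusted p = 4.04e-05), a size limited by the floor. Spink11 stood at 4.85 to 5.74 in wild-type libraries, at 7.47, 6.29 and 7.0 in null libraries 1, 2 and 5, and at 5.83, 5.84 and 5.91 in null libraries 3, 4 and 6. The 2 null sets stood apart, the second close to the wild-type range. Spink11 rose by 1.0 ± 0.28 (SE; limma adjusted p = 0.00795), but not over set means (adjusted p = 0.146), and the difference was 0.47 without null libraries 1, 2 and 5 and 1.53 without null libraries 3, 4 and 6. The call was also lost without wild-type libraries 1, 2 and 3 (0.80, adjusted p = 0.101) and without the 4 libraries nearest to a mix (0.90, adjusted p = 0.0578).

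Of 7 untested Spink genes, 4 stayed under 4 throughout. Spink14 stood at 3.57 to 4.63 in wild-type libraries and at 2.22 to 3.21 in null libraries, so that all of its null values lay in the range of undetected genes. With no filter on low values, where 33.8% of all genes were called, Spink14 was called lower with a difference of -1.42 and limma adjusted p = 7.02e-05, and Spink13 higher by 0.78 with adjusted p = 0.0312.

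**Figure D2:**
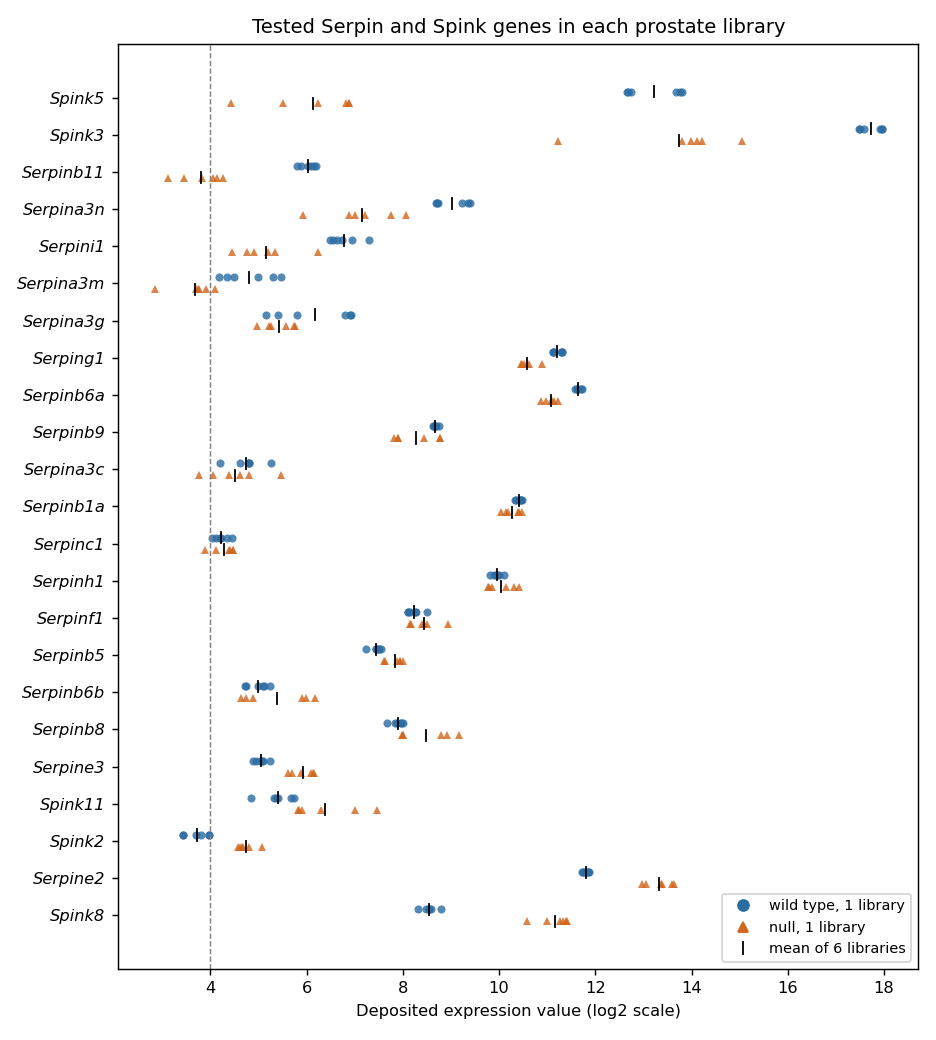
Deposited expression (x axis, log2 scale) of 23 of the 24 tested Serpin and Spink genes (rows) in 6 wild-type libraries (circles) and 6 null libraries (triangles), with black ticks at the means and a dashed line at 4. Spink5 and Spink3 lie far to the left in null libraries, and Spink8 and Serpine2 lie to the right.

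Among the 19 tested serpins the largest fall was that of Serpinb11. This gene, an intracellular clade B serpin, stood at 5.79, 5.88, 6.09, 6.03, 6.19 and 6.15 in wild-type libraries and at 4.13, 3.83, 4.26, 4.05, 3.12 and 3.44 in null libraries. All null values lay at or near the floor, which limits the size of the fall. Serpinb11 fell by 2.22 ± 0.18 (SE; limma adjusted p = 1.92e-07; adjusted p = 0.00419 over set means). With 6 wild-type and 3 null libraries at 4 or more, it could not have met the filter without the wild-type libraries, where it is high.

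Serpina3 genes form a run of neighbours on chromosome 12 in the RefSeq annotation, where mice have many copies of what is a single gene, alpha-1-antichymotrypsin, in humans. Of 11 Serpina3 genes in the table, 4 were tested, and 2 of these fell. Serpina3n, an acute-phase inhibitor that binds granzyme B and elastase, stood at 9.35, 9.23 and 9.40 in wild-type libraries 1, 2 and 3 and at 8.70, 8.72 and 8.68 in libraries 4, 5 and 6. In null libraries 1, 2 and 5 it stood at 8.07, 7.21 and 7.75, and in null libraries 3, 4 and 6 at 5.93, 7.01 and 6.88. Each set kept to its own level, and the null sets both lay under the wild-type sets. Serpina3n fell by 1.87 ± 0.31 (SE; limma adjusted p = 2.72e-04; adjusted p = 0.0479 over set means).

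Serpina3m, another member of this run, stood at 4.98 to 5.46 in wild-type libraries 1, 2 and 3, at 4.17 to 4.49 in libraries 4, 5 and 6, and at 2.84 to 4.09 in null libraries. Only 1 null library reached 4. The gene could not have met the filter without the wild-type libraries, where it is high, so the filter favoured a fall. Its fall was 1.12 ± 0.25 (SE; limma adjusted p = 0.00186; adjusted p = 0.0909 over set means), and the difference was -0.66 without wild-type libraries 1, 2 and 3. Serpina3g, known as an intracellular inhibitor of cathepsins in leukocytes, stood at 6.80 to 6.93 in wild-type libraries 1, 2 and 3, but at 5.16 to 5.80 in libraries 4, 5 and 6 and 4.96 to 5.75 in null libraries. Wild-type libraries 4, 5 and 6 overlapped the null libraries and only libraries 1, 2 and 3 stood above them. Its difference of -0.75 did not pass (limma adjusted p = 0.0591), and was -1.46 with adjusted p = 6.56e-05 without wild-type libraries 4, 5 and 6 and -0.04 with adjusted p = 0.884 without libraries 1, 2 and 3. It passed under upper quartile scaling (-0.82, adjusted p = 0.0446) and without wild-type library 4 (-0.95, adjusted p = 0.0131) or 6 (-0.90, adjusted p = 0.0285). Serpina3c overlapped between genotypes (difference -0.23, limma adjusted p = 0.472).

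Macrophage markers also differed between the wild-type sets. The summed level of 7 genes was 12.62 to 12.65 in wild-type libraries 1, 2 and 3 and 11.80 to 11.88 in libraries 4, 5 and 6. In null libraries it was 11.25 to 11.39, with 6 of 7 genes lower in every null library, against 2292 of 15096 tested genes. Lymphocyte markers split too. Their summed level was 9.12 in wild-type libraries 1, 2 and 3, 8.26 to 8.39 in libraries 4, 5 and 6, and 7.91 to 8.13 in null libraries. Of these 7 genes, Cd79a, Cd79b and Ms4a1 were lower in every null library, against 2292 of 15096 tested genes, and 0 were higher. Over 12 libraries 5 of the 7 were called lower. Gzmb went the other way and was called higher (difference 0.57, limma adjusted p = 0.00139), and its values in the wild-type sets overlapped. Cd3e was not called (difference -0.21, limma adjusted p = 0.41). The part of macrophage and lymphocyte markers in the Serpina3 values was not tested. Paralogs also limit these values. In GENCODE M21 transcripts, 19.1% of the 50-base windows of Serpina3m, 15.5% of those of Serpina3g and 6.90% of those of Serpina3n occur in another family transcript, against 0 in 15 of the 24 tested members, and the sources used here do not say how shared reads were assigned. The neighbours that share most with them are Serpina3k for Serpina3m and Serpina3h for Serpina3g.

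Serpins of plasminogen activation changed in opposite directions. In this pathway the proteases uPA (Plau) and tPA (Plat) turn plasminogen into plasmin, the uPA receptor (Plaur) holds uPA at the cell surface, and serpins that include protease nexin-1 (Serpine2) and neuroserpin (Serpini1) inhibit them. Serpine2 stood at 11.72, 11.74, 11.77, 11.87, 11.84 and 11.84 in wild-type libraries and at 12.96, 13.64, 13.06, 13.60, 13.36 and 13.38 in null libraries. The spread in each genotype was small beside the gap. Serpine2 rose by 1.54 ± 0.10 (SE), 2.90-fold, from 11.80 ± 0.061 (SD, n = 6) to 13.33 ± 0.28 (SD, n = 6), with limma adjusted p = 3.06e-08 and adjusted p = 0.00232 over set means.

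Serpini1 stood at 6.48 to 7.29 in wild-type libraries (median 6.69). In null libraries 1 to 6 it stood at 6.24, 4.44, 5.20, 4.91, 5.35 and 4.77, all lower, with library 1 closest to wild type. Serpini1 fell by 1.62 ± 0.25 (SE; limma adjusted p = 1.04e-04; adjusted p = 0.0147 over set means). Serpine3, a serpin of the clade of Serpine2, rose by 0.88 ± 0.12 (SE; limma adjusted p = 2.84e-05) from 4.88 to 5.24 in wild-type libraries to 5.61 to 6.16 in null libraries, while over set means its adjusted p was 0.05.

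Of the 2 activators, Plat stood at 7.47 to 7.61 in wild-type and 6.61 to 7.30 in null libraries and fell by 0.57 ± 0.11 (SE; limma adjusted p = 7.18e-04; adjusted p = 0.107 over set means). Plau was split by set within the null genotype. It stood at 6.98 to 7.39 in wild-type libraries, at 10.27, 11.43 and 10.98 in null libraries 1, 2 and 5, and at 6.65, 6.39 and 6.74 in null libraries 3, 4 and 6. Over 12 libraries the difference of 1.57 did not pass (limma adjusted p = 0.192), and it was -0.58 with adjusted p = 0.00181 without null libraries 1, 2 and 5 and 3.72 with adjusted p = 6.60e-07 without null libraries 3, 4 and 6. Plasminogen (Plg), made by the liver, stayed at 2.27 to 3.67 in all 12 libraries, within the range of undetected genes. The receptor gene Plaur rose by 1.69 ± 0.19 (SE), from 5.10 to 5.89 in wild-type libraries to 6.60 to 7.65 in null libraries (limma adjusted p = 3.87e-06; adjusted p = 0.00527 over set means).

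**Figure D3:**
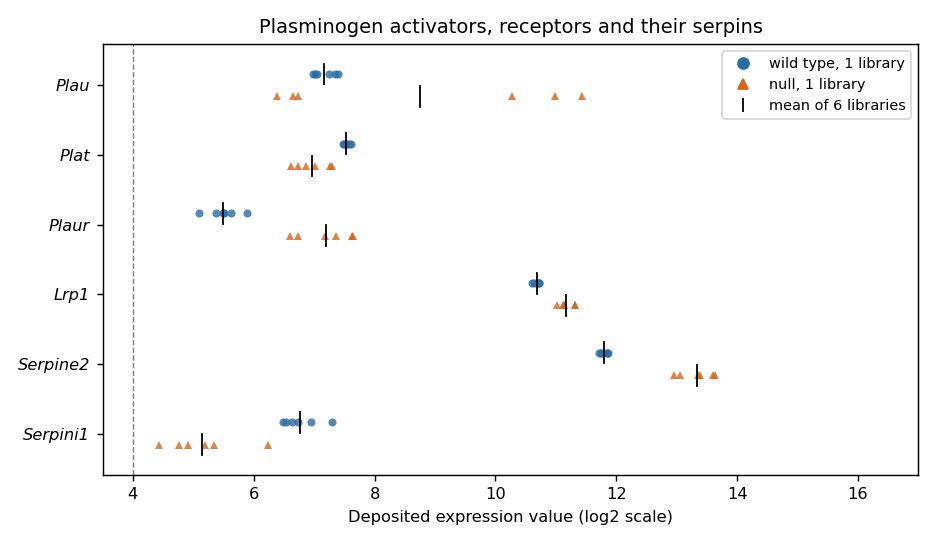
Deposited expression (x axis, log2 scale) of 2 plasminogen activators, 2 receptors and 2 serpins that inhibit the activators (rows) in 6 wild-type libraries (circles) and 6 null libraries (triangles), with black ticks at the means and a dashed line at 4. Serpine2 and Plaur lie higher in every null library, Serpini1 and Plat lie lower, and Plau splits into separate groups of null libraries.

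The 250 bases upstream of the annotated start are shown for 4 of the serpins that changed by over 1 on the log2 scale, from the RefSeq table of build GRCm38.p6, as the sequence in front of the transcripts whose levels moved. The values were made on build mm9, and no position was carried between builds. Bases are lower case. Capitals mark 2 motifs, searched on both strands, which do not overlap here. One is the androgen receptor half-site AGAACA. The other is the TATA box, written TATAAA.
Serpine2, chr1:79858666-79858915, minus strand: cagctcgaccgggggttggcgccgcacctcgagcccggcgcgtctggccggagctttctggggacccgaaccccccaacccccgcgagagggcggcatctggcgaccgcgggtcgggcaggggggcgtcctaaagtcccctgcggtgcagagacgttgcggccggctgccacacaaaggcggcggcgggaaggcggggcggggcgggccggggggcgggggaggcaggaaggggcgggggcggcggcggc
Serpina3n, chr12:104406458-104406707, plus strand: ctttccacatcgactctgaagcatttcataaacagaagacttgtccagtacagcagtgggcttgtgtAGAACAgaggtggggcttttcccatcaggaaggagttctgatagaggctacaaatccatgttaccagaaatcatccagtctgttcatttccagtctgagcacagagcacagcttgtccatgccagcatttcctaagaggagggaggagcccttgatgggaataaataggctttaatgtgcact
Serpinb11, chr1:107362064-107362313, plus strand: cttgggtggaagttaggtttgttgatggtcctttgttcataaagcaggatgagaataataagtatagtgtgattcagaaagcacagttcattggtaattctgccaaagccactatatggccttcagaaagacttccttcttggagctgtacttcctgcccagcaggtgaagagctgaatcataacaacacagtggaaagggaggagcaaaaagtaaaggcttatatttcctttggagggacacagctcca
Serpini1, chr3:75557243-75557492, plus strand: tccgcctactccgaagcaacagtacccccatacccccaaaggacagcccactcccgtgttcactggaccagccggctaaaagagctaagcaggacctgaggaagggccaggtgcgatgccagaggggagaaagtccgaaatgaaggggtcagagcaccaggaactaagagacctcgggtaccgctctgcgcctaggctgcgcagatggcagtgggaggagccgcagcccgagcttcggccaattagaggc

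The upstream sequence of Serpine2, the gene of these 4 that rose, held 78.8% G and C, against 46.4% for Serpina3n, 42.8% for Serpinb11 and 61.2% for Serpini1. The half-site occurred once, in Serpina3n, starting 183 bases before the start, and was found in 16.1% of 32851 such upstream sequences. None of these 4 sequences held the TATA letters, which 12.4% of all upstream sequences did. A match of letters is a description and no evidence of binding.

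Intracellular clade B serpins, which protect cells from their own and from neighbouring cells' proteases, changed in both directions. Of 27 such genes, 7 were tested, 2 rose, 2 fell and 3 were not called (57.1% called, against 53.1% of all tested genes). Beside Serpinb11, Serpinb6a, an inhibitor of cathepsin G, fell by 0.58 ± 0.055 (SE), from 11.58 to 11.73 in wild-type libraries to 10.88 to 11.23 in null libraries (limma adjusted p = 8.27e-07; adjusted p = 0.0167 over set means). Every null library lay below every wild-type library by a small amount. Serpinb5, which encodes maspin, a serpin of basal and myoepithelial cells that does not inhibit proteases, stood at 7.24 to 7.55 in wild-type and 7.60 to 8.00 in null libraries and rose by 0.38 ± 0.087 (SE; limma adjusted p = 0.00191; adjusted p = 0.143 over set means). Basal markers were higher beside it: 5 of 8 lay above wild type in every null library, against 2628 of 15096 tested genes. The summed level of these markers was 11.74 to 11.94 in wild-type and 12.16 to 12.66 in null libraries. Their part in the rise of Serpinb5 was not tested.

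Serpinb8 and Serpinb9 followed the null sets. Serpinb8, an inhibitor of furin, stood at 7.68 to 8.01 in wild-type libraries, at 8.00, 8.01 and 7.99 in null libraries 1, 2 and 5, and at 8.79, 9.17 and 8.91 in null libraries 3, 4 and 6. It rose by 0.59 ± 0.20 (SE; limma adjusted p = 0.0254), and the call ended over set means (adjusted p = 0.271) and without null libraries 3, 4 and 6 (difference 0.11, adjusted p = 0.283). Either wild-type set left out ended it too (adjusted p = 0.0772 and 0.18), as did leaving out the 4 libraries nearest to a mix (adjusted p = 0.0904). Some urothelial markers were higher beside it. Of 4, Upk1b and Upk2 lay above wild type in every null library, against 2628 of 15096 tested genes. Upk1a overlapped and was not called (difference 0.16, limma adjusted p = 0.0722), and Upk3a was not tested. Upk1b, which made up most of the summed level in null libraries, stood at 11.76 to 11.96 in wild-type and 12.53 to 14.20 in null libraries. The summed level of the 4 markers was 12.54 to 12.78 in wild-type libraries. It was 13.22, 13.53 and 13.37 in null libraries 1, 2 and 5, and 13.72, 14.45 and 14.15 in null libraries 3, 4 and 6. Their part in the Serpinb8 values was not tested. Serpinb8 also lost its call without wild-type library 6 (adjusted p = 0.0529), null library 3 (adjusted p = 0.0556) or null library 6 (adjusted p = 0.0563). Serpinb9, an inhibitor of granzyme B, stood at 8.62 to 8.76 in wild-type libraries, at 8.44, 8.77 and 8.77 in null libraries 1, 2 and 5, and at 7.90, 7.82 and 7.89 in null libraries 3, 4 and 6. Its difference of -0.40 did not pass (limma adjusted p = 0.0552), and was -0.80 with adjusted p = 2.30e-07 without null libraries 1, 2 and 5. Without null library 2 it was -0.51 with adjusted p = 0.0135, and without null library 5 also -0.51 with adjusted p = 0.0142. Upper quartile scaling gave -0.47 with adjusted p = 0.04. Serpinb6b stood at 5.98, 6.18 and 5.91 in null libraries 1, 2 and 5 and at 4.63, 4.88 and 4.73 in null libraries 3, 4 and 6, against 4.72 to 5.23 in wild-type libraries. It was not called (difference 0.41, limma adjusted p = 0.223), but gave 1.05 with adjusted p = 0.000154 without null libraries 3, 4 and 6 and -0.23 without null libraries 1, 2 and 5. Serpinb1a, an inhibitor of neutrophil elastase, differed by -0.13 and was not called (limma adjusted p = 0.116), but it was called lower after quantile normalization (-0.20, adjusted p = 0.0216) and upper quartile scaling (-0.21, adjusted p = 0.017). Without null library 4 (-0.17, adjusted p = 0.0393) or without null libraries 3, 4 and 6 (-0.20, adjusted p = 0.0352) it was called as well.

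**Figure D4:**
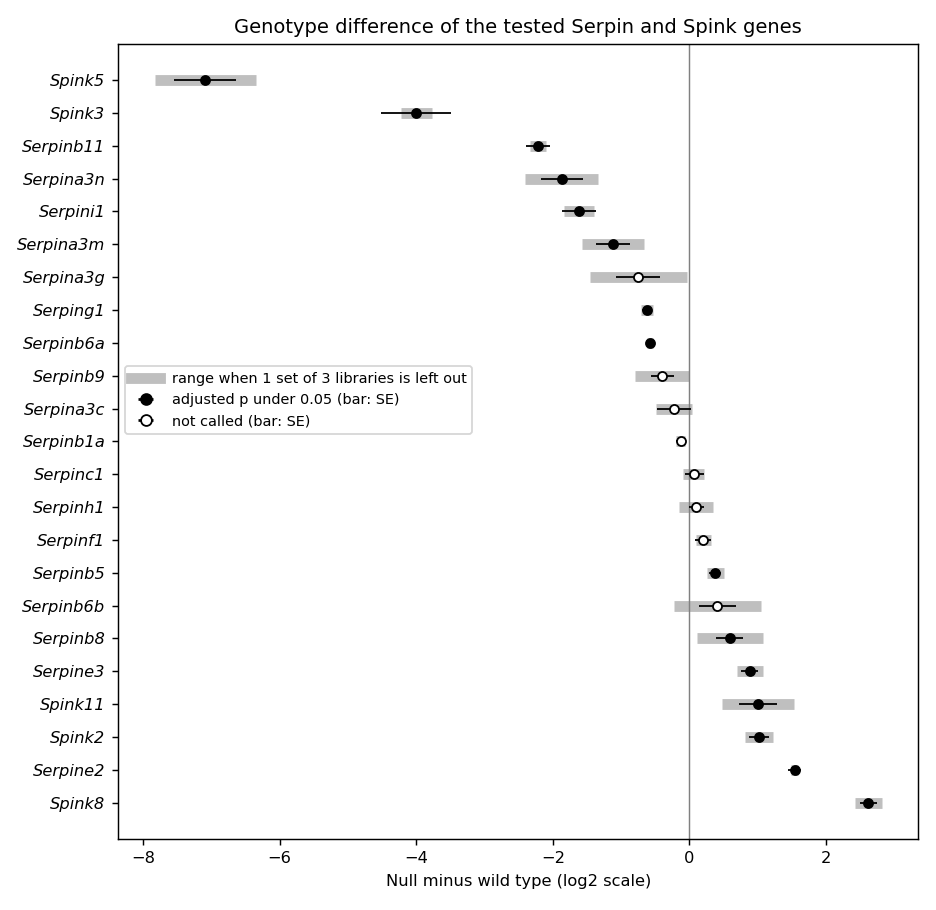
Null minus wild-type difference (x axis, log2 scale) of 23 of the 24 tested genes, with bars for the SE from limma over 12 libraries, filled points for adjusted p under 0.05 and grey bars for the range of the difference when 1 of the 4 library sets is left out. The grey bars of Serpina3c, Serpinc1, Serpinh1 and Serpinb6b cross 0, and those of Spink5, Spink3, Serpine2 and Spink8 stay far from it.

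Among the serpins of complement, matrix and clotting, 1 fell and 3 were not called, while 53.1% of all tested genes were called and 25.1% fell. Serping1, the C1 inhibitor that restrains the first step of the classical complement pathway, stood at 11.11 to 11.31 in wild-type and 10.46 to 10.89 in null libraries, with no overlap. It fell by 0.62 ± 0.071 (SE; limma adjusted p = 4.51e-06; adjusted p = 0.0227 over set means). Serpinh1, the collagen chaperone HSP47, stood at 10.42, 10.14 and 10.31 in null libraries 1, 2 and 5, at 9.78, 9.77 and 9.86 in null libraries 3, 4 and 6, and at 9.82 to 10.10 in wild-type libraries. The null sets lay on opposite sides of most wild-type values. Its difference of 0.10 did not pass (limma adjusted p = 0.484), and was -0.15 with adjusted p = 0.0465 without null libraries 1, 2 and 5 and 0.34 with adjusted p = 0.00181 without null libraries 3, 4 and 6. Serpinf1, which encodes the secreted factor PEDF, differed by 0.20 (limma adjusted p = 0.168). Serpinc1, antithrombin, stood close to the floor at 3.89 to 4.47 in all 12 libraries and differed by 0.07 (limma adjusted p = 0.699), with -0.09 without null libraries 1, 2 and 5 and -0.00 under upper quartile scaling.

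In 37 of the 51 untested members no library reached 4, with values of 1.38 to 3.97. These included 5 of the 6 antitrypsin genes Serpina1a to Serpina1f and the thyroxine and corticosteroid carriers Serpina7 and Serpina6. Of 6 hepatocyte markers, 4 were under 4 in every library as well, albumin among them. The other 14 reached 4 in 1 to 4 libraries: Serpina1f, Serpina3b, Serpina3f, Serpina3h, Serpina3i, Serpina3k, Serpina5, Serpinb1b, Serpinb1c, Serpinb6c, Serpind1, Spink10, Spink13 and Spink14. Of all 51, 5 were called when no filter was applied: Serpina3b and Spink13 higher, and Serpinb7, Serpinb9d and Spink14 lower. Over all genes 33.8% were called, but these include the genes that met the filter, so the shares are not alike. Serpinb7 and Serpinb9d stayed under 4 in every library, within the range of undetected genes.

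Serpina1f, a serpin of the epididymis, was detected in a single set. It stood at 2.79 to 3.46 in wild-type libraries and at 2.55, 2.28 and 2.39 in null libraries 3, 4 and 6, but at 5.84, 7.68 and 7.13 in null libraries 1, 2 and 5. Spink10 stood at 4.29, 5.24 and 4.78 in the same 3 null libraries and at no more than 3.81 in the other 9. Without a filter neither was called between genotypes (limma adjusted p = 0.305 for Serpina1f and 0.0766 for Spink10). An equal mix of null libraries 1 and 2 would give 7.04 for Serpina1f, and library 5 stood at 7.13.

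Some markers of neighbouring glands were high in the same null libraries. Crisp1, an epididymal secretory gene, stood at 8.40, 11.31 and 10.42 in null libraries 1, 2 and 5, at 2.73 to 3.74 in null libraries 3, 4 and 6 and at 2.15 to 4.32 in wild-type libraries. The summed level of 13 epididymal genes was 8.96, 11.60 and 10.77 in null libraries 1, 2 and 5, 6.86 to 7.14 in null libraries 3, 4 and 6, and 8.36 to 9.02 in wild-type libraries, where it was carried by Adam7, which stood at 7.85 to 8.60 in wild-type and 2.53 to 3.77 in null libraries. In all 12 libraries 8 of the 13 stayed under 4, Lcn5 and Gpx5 among them. Seminal vesicle genes followed more than 1 pattern. Svs1, Svs2 and Pate4 were higher in null libraries 1, 2 and 5 than in the other null libraries. Svs2 stood at 17.86, 19.36 and 18.86 in null libraries 1, 2 and 5 and at 11.62, 12.56 and 12.13 in null libraries 3, 4 and 6. The wild-type sets differed as well, with Svs2 at 11.15 to 11.26 in libraries 1, 2 and 3 and at 4.52 to 4.81 in libraries 4, 5 and 6. Svs3a, Svs3b, Svs4, Svs6 and Ceacam10 were high in all 6 null libraries and lowest of these in null library 1, as Svs3a was at 10.04 against 13.42 or more in the other null libraries. Across 9 seminal vesicle genes, 8 lay above wild type in every null library, against 2628 of 15096 tested genes. Of these, Svs3a, Svs3b and Svs6 stayed under 4 in every wild-type library. They met the filter through the null libraries alone and so had to lie apart. The summed level of the 9 was 11.73 to 11.81 in wild-type libraries 1, 2 and 3 and 8.06 to 8.11 in libraries 4, 5 and 6. In null libraries it was 16.81 to 20.38. The part of neighbouring tissue in the values of Serpina1f, Spink10, Spink11, Serpinb6b and Plau was not tested.

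**Figure D5:**
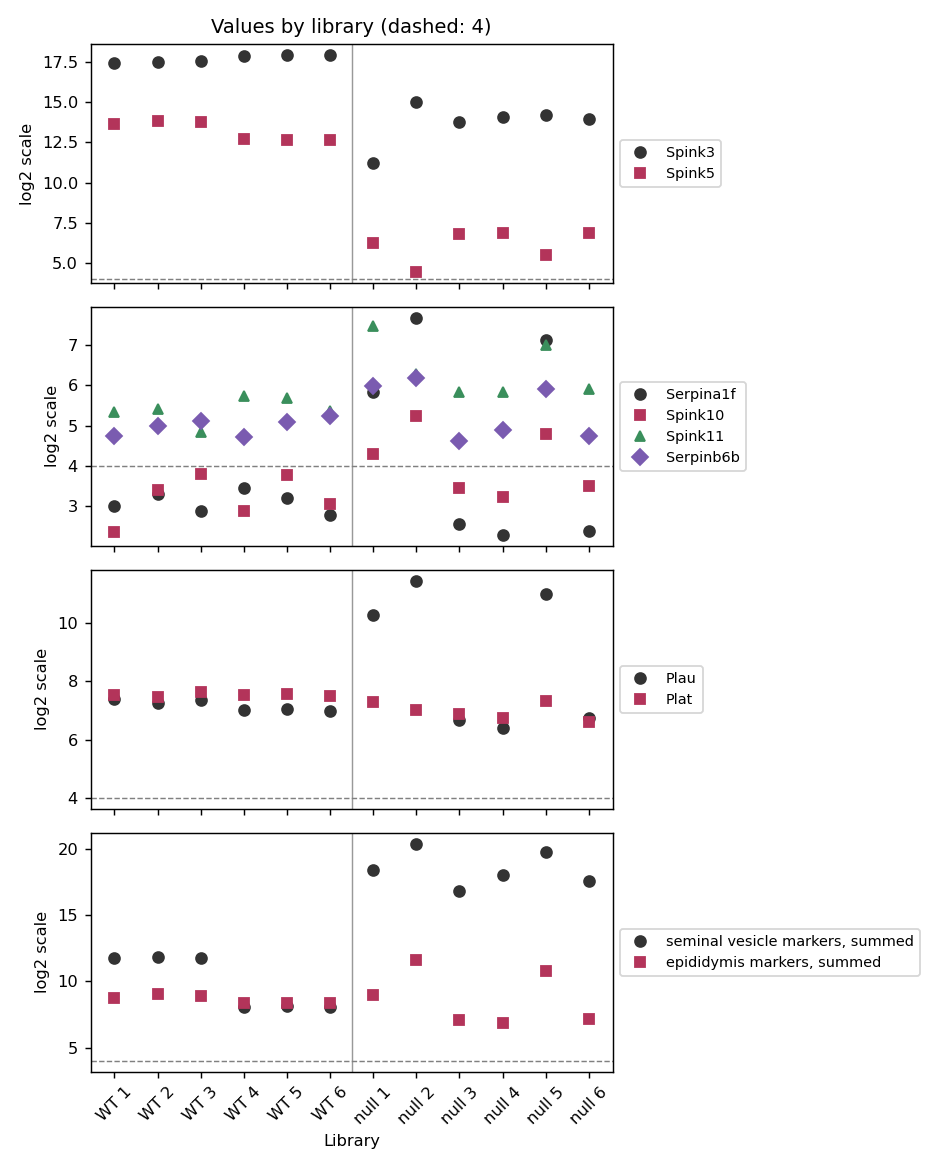
Values on a log2 scale (y axes) in the 12 libraries (x axis; WT, wild type) of Spink3 and Spink5, of 4 further family genes, of the proteases Plau and Plat, and of the summed seminal vesicle and epididymis markers; the dashed line is at 4. Serpina1f, Spink10 and Plau lie above the other libraries in null libraries 1, 2 and 5.

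The proteases that these inhibitors act on changed about as often as other genes. Of 49 target proteases measured, 25 were tested, 3 rose, 10 fell and 12 were not called (52.0% called, against 53.1% of all tested genes), with 3 passing over set means, against 14.5%. Tmprss4, a membrane-bound serine protease, fell by 3.66 ± 0.20 (SE; limma adjusted p = 3.23e-09), from 6.31 to 7.39 in wild-type libraries to 2.73 to 3.58, the range of undetected genes. It passed the filter through the wild-type libraries alone and so had to differ. Tmprss2, the androgen-induced membrane protease, fell by 1.25 ± 0.15 (SE; limma adjusted p = 1.41e-05), with adjusted p = 0.0195 over set means. The lysosomal cathepsin gene Ctss fell by 1.27 (limma adjusted p = 0.00153; adjusted p = 0.12 over set means), and wild-type libraries 1, 2 and 3 stood at 9.79 to 9.80 against 8.53 to 8.62 in libraries 4, 5 and 6. Gzma, a granzyme of cytotoxic lymphocytes, rose by 1.01 (limma adjusted p = 8.92e-04; adjusted p = 0.0785 over set means).

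Of 15 receptors and cofactors of serpins or of their target proteases, 7 rose, 4 fell and 4 were not called (73.3% called, against 53.1% of all tested genes). Over set means 6 passed, where 14.5% of all tested genes did. Beside Plaur, the endocytic receptor gene Lrp1 rose by 0.49 ± 0.054 (SE; limma adjusted p = 3.21e-06). Of the heparan sulfate carriers, Sdc1 rose by 0.73 ± 0.064 (SE; limma adjusted p = 3.10e-07) and Sdc4 fell by 0.50 ± 0.044 (SE; limma adjusted p = 3.76e-07). The carriers Gpc1 and Hspg2 also rose, by 0.73 ± 0.096 (SE; limma adjusted p = 1.89e-05) and 0.79 ± 0.096 (SE; limma adjusted p = 1e-05).

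Protease inhibitors of other families moved in both directions too. Of 39 such genes listed, 25 were tested, 5 rose, 8 fell and 12 were not called (52.0% called, against 53.1% of all tested genes), with 10 passing over set means, where 14.5% of all tested genes did. Spint2, a Kunitz-type inhibitor of membrane-bound serine proteases, stood at 13.79 to 13.90 in wild-type and 15.05 to 15.25 in null libraries and rose by 1.30 ± 0.050 (SE; limma adjusted p = 7.87e-11). Timp1, a metalloprotease inhibitor, rose by 1.06 ± 0.12 (SE; limma adjusted p = 5.90e-06). In contrast its relative Timp4 fell by 3.04 ± 0.079 (SE; limma adjusted p = 9.15e-13), and the secretory leukocyte protease inhibitor gene Slpi fell by 2.99 ± 0.18 (SE; limma adjusted p = 7.89e-09), to between 3.77 and 4.83. Itih2, a heavy chain of the inter-alpha-trypsin inhibitor, fell by 1.61 ± 0.19 (SE; limma adjusted p = 6.49e-06). All 5 passed over set means.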

How the data were processed

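Poly-A RNA of 12 prostate libraries was sequenced on an Illumina HiSeq, per the labels' protocols. Tools listed without roles in the submitters' processing notes are DESeq, Cufflinks 2.0.2, TopHat2 2.0.4 and CASAVA 1.8.2, beside the build mm9. The authors deposited 1 table of log2 values, 1.07 to 21.6, of the form that variance-stabilised counts have. No source used here states the transformation.

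The values were tested as deposited, with no pseudocount, by limma 3.58.1 in R 4.3.3 (mean-variance trend, robust moderation, genotype as the only term) over all genes at 4 or more in at least 6 libraries. Benjamini-Hochberg adjustment ran over all tested genes, with a threshold of 0.05. Standard errors and adjusted p are limma's. The fit was tested on simulated data.

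Members and lists were chosen with earlier results of these data known, and the 13 epididymal genes after seeing the values here. Genes named are Spink3, Spink5, members called at 2-fold or more, the 10 members of highest mean, members at 4 in 1 to 5 libraries, and companion genes called at 2-fold or, with fewer than 4 such, the 4 of lowest adjusted p, with Plat, Plau and Plg in any case, and the cell type markers set beside a member. The other tested members and the heparan sulfate carriers Gpc1 and Hspg2 were added. Library sets are the split of each genotype into triplets with the smallest summed distance of 1 library per triplet from the equal mix of the other libraries in it, so they come from the data and not from the labels. Marker lists were summed on the linear scale and taken back to log2. All 75 symbols matched RefSeq, 73 by symbol and 2 by synonym. The targeted gene and 1 of the 24 tested members, which stay in all totals, are not reported here.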

Additional observations from a re-analysis of the deposited data

Results flagged for a closer look

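In a group of 6 libraries, a value was singled out when its gap to the nearest other value as a share of the group's range exceeded Dixon's critical value, which chance gives in about 1 of 20 groups. Of 106 groups examined, 6 had such a value. Spink3 in null library 1 stood at 11.23, with 13.80 as the next lowest null value. Serping1 in null library 1 stood at 10.89, above 10.62. Serpind1, which was not tested, stood at 2.78 in null library 1, below 3.54, with all null values under 4. Serpina3m stood at 2.84 in null library 3, below 3.70, and Serpina3h, not tested, at 4.35 in null library 2, above 3.93. Serpinb5 stood at 7.24 in wild-type library 1, below 7.44. The list includes 3 values of null library 1.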

How the results depend on the processing

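No paired analysis was possible because the library codes of the 2 genotypes share no numbers. Of the 15 called members, 10 kept direction and call under all 24 alternatives in which they were tested. The other 5 did not: Serpina3m, Serpinb5 and Serpine3 lost the call over set means alone, and Serpinb8 and Spink11 also under other settings. The number of changed members was 10 to 20 over all alternatives, 14 to 16 when 1 library was left out. Over set means 3 members were higher, 3 target proteases changed and 6 receptors and cofactors changed. The set mean fit has 2 values a genotype, and the cause of each loss was not tested. Differences that turned sign, with none of these genes called over 12 libraries, were Serpina3c without null libraries 3, 4 and 6 (0.03), Serpinb6b without null libraries 1, 2 and 5 (-0.23), Serpinc1 under upper quartile scaling (-0.00), without null libraries 1, 2 and 5 (-0.09) and without the 4 libraries nearest to a mix (-0.06), and Serpinh1 (-0.15) and Plau (-0.58) without null libraries 1, 2 and 5. Leaving out the 4 libraries nearest to a mix, chosen after seeing the data, kept 13 members called, 5 higher and 8 lower. The depth is unknown, and values under 4 cannot be told from undetected genes.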
